A study of Mus musculus with 4 samples.

Results

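The MS4A genes (membrane-spanning 4-domains, subfamily A) encode small proteins that cross the cell membrane several times and leave both ends inside the cell. Several of them are known as partners of immune receptors. Ms4a1 encodes CD20, the B cell surface protein that is the target of anti-CD20 antibodies, and Ms4a2 encodes the beta chain of the high-affinity IgE receptor of mast cells and basophils. Ms4a4b encodes a protein of mouse T cells that associates with the costimulatory receptor GITR. The Ms4a6 genes and Ms4a7 are known from monocytes and macrophages, and the protein of Ms4a6d is known in mouse macrophages as a partner of the complement receptor VSIG4.

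The 8 genes described here (Ms4a1, Ms4a2, Ms4a4b, Ms4a4c, Ms4a6b, Ms4a6c, Ms4a6d and Ms4a7) were found by symbol among the 31053 genes counted, and each symbol matched 1 gene. They were measured in live CD45.2+ immune cells that were sorted from lungs at 10 weeks of age, and all mice were of strain C57BL/6J. The genotype of the Lmna KO mice was Lmna-flox/flox Vav1-cre+/-, in which Cre is driven by the promoter of Vav1, a gene of blood-forming cells and their descendants. The WT mice had the same Lmna-flox/flox alleles and were Vav1-cre-/-. Each genotype had 2 mice and 2 libraries, so n = 2 for every mean of a genotype below. Cre was present in both knockout mice and absent from both WT mice, which means that an effect of the recombinase and an effect of losing lamin A/C cannot be told apart.

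The libraries were made with a droplet kit that tags the 3′ end of each RNA molecule with a unique molecular identifier (UMI), and they held 21780914 and 21849805 UMIs in knockout 1 and 2 and 26433722 and 27045250 in WT 1 and 2. After filtering, 3655 and 3488 knockout cells and 3817 and 3760 WT cells were used, and 27 barcodes occurred in more than 1 library. Cells were clustered without any Ms4a or Tmem176 gene, and 21 classes were named from marker genes, in part by hand. A class named for a cell type below is an "X-like" class that carries that type's markers, and the ending is left out for ease of reading. A class was tested where each library had at least 25 of its cells, which held for 9 classes, and smaller classes are described without a test. Library WT 2 stood apart in its T lineage, since it held 262 of the 268 cells of cluster 12, which was led by the thymocyte genes Rag1 and Dntt. That cluster was set aside from the classes but stayed in the sums over all kept cells. Lmna itself, which checks the labels, was lower in knockout alveolar macrophages, the tested class with the highest level (59.0 and 80.8 TMM-scaled counts per 1000000 in the knockout libraries, against 373 and 328 in the WT libraries). Its log2 fold change there was -2.34 ± 0.18 (standard error). It was also lower in knockout NK cells (3.83 and 10.01 in knockout, 18.8 and 25.7 in WT, log2 fold change -1.57 ± 0.41, adjusted p = 0.0431 by edgeR). In B cells the log2 fold change was -1.29 ± 0.31 (adjusted p = 0.0965 by edgeR). In classical monocytes Lmna was low in every library and its values overlapped (5.92 and 12.1 in knockout, 6.48 and 11.01 in WT, log2 fold change 0.04 ± 0.41), so it does not check the labels in that class. A level below is in CPM, the gene's UMIs per 1000000 UMIs of a class in a library, and n = 4 libraries where a mean over all libraries is given.

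All 8 genes lie on chromosome 19 within 374045 bases (GRCm38, the mm10 build), are annotated as protein coding, and are named here in the order of the chromosome. Ms4a1 spans 11249675 to 11266241 and Ms4a7 spans 11321039 to 11336146, both on the minus strand. On the plus strand lie Ms4a4c (11404770 to 11427246), Ms4a4b (11443553 to 11467055), Ms4a6c (11469366 to 11482192) and Ms4a6b (11516512 to 11531256). Ms4a6d (11586604 to 11604849) and Ms4a2 (11615523 to 11623719) are on the minus strand. The same stretch holds 12 Ms4a genes in all. Some neighbours are near copies of each other at their 3′ ends, where the kit reads. Of the 31-base words in the last 500 bases of a gene's transcripts, 20.8% in Ms4a4c, 12.9% in Ms4a6c, 11.4% in Ms4a6b and 4.40% in Ms4a4b also occurred in another Ms4a gene. Ms4a1, Ms4a2, Ms4a6d and Ms4a7 shared none with another Ms4a gene. How the counting treated a read that fits several genes is not given in the sources used here, so part of the counts of the first 4 genes may be uncertain, and how much was not measured.

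Some near copies in this row of genes had their highest levels in different classes, and 2 pairs of promoters are shown for that reason. The promoter of Ms4a2 is shown for a member that was read in a single class. Among the named tested classes Ms4a4b was highest in T and NK cells and Ms4a4c in classical monocytes, and their RefSeq promoters (GRCm38.p6, 250 bases before the start site to 50 after it, 5′ to 3′ on the strand of the gene) aligned with 162 of 182 bases identical (89.0%). In Ms4a4b (chr19:11443308-11443607, plus strand) and Ms4a4c (chr19:11407411-11407710, plus strand) the capitals mark matches to the motifs named in the next paragraph.
Ms4a4b: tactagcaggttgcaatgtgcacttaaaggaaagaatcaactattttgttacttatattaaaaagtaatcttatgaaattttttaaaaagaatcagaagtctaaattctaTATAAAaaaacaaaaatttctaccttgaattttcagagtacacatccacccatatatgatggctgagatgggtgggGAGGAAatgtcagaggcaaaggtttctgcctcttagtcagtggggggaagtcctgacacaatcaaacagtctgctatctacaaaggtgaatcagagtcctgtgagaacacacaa
Ms4a4c: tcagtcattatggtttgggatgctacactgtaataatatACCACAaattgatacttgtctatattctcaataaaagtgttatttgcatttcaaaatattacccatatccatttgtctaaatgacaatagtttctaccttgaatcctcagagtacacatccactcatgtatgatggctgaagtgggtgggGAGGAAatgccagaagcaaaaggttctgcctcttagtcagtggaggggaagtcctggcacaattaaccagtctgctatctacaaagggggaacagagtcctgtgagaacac
Among the same classes Ms4a6b was highest in CD4 T cells and Ms4a6c in classical monocytes, where both had a UMI in at least 93.3% of the cells, and their promoters aligned with 182 of 213 bases identical (85.4%). In Ms4a6b (chr19:11518309-11518608, plus strand) and Ms4a6c (chr19:11469118-11469417, plus strand) the capitals mark the longest run that both share, 48 bases.
Ms4a6b: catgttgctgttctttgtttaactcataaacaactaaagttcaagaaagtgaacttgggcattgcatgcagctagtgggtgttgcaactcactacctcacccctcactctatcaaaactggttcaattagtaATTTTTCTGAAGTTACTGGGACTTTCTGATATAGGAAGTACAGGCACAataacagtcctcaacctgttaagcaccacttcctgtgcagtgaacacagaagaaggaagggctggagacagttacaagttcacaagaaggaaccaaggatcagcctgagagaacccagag
Ms4a6c: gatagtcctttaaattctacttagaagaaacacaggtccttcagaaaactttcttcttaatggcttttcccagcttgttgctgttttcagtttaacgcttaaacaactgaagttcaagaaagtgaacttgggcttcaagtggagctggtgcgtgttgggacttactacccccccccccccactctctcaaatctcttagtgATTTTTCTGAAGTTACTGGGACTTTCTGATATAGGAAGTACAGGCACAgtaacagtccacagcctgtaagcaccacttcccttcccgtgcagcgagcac
The promoter of Ms4a2 (chr19:11623670-11623969, minus strand) is shown with its matches to the GATA motif in capitals, on either strand.
Ms4a2: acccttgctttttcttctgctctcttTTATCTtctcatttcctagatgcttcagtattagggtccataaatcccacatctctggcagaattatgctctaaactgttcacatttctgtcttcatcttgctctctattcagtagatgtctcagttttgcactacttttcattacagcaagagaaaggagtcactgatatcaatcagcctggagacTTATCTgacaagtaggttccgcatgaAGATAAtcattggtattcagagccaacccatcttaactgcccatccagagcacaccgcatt

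The RefSeq table held promoters for 6 of the 8 members, and 8 motifs were searched in them on both strands. For PU.1-type ETS factors the letters GAGGAA were searched, which stood in 28.3% of all 32851 promoters of the table. The RUNX motif was read as TGTGGT, and 16.8% of all promoters of this length held it. The GATA motif, known to be bound by GATA factors of mast cells and basophils, was read as AGATAA (in 11.2% of all promoters). The AP-1 motif was read as TGACTCA and stood in 5.20% of all promoters. For C/EBP factors the letters were TTGCNNAA, in 10.8% of promoters, where N is any base. The IRF motif GAAANNGAAA stood in 3.44% of all promoters, and the ETS-IRF motif GGAANNGAAA, whose second part it shares, in 2.72%. The TATA box was read as TATAAA and found in 13.6% of all promoters. Ms4a2 held 3 matches to the GATA letters, at -224, -37 and -11 from the start site. Ms4a4b and Ms4a4c each held GAGGAA inside their alike stretch, at -64 and -61, and 1 of the 2 Ms4a7 promoters held it at 43 bases after the start site. Outside that stretch Ms4a4b had TATAAA at -140 and Ms4a4c had the RUNX letters at -211. These are matches of letters and not shown to be sites.

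**Figure D1:**
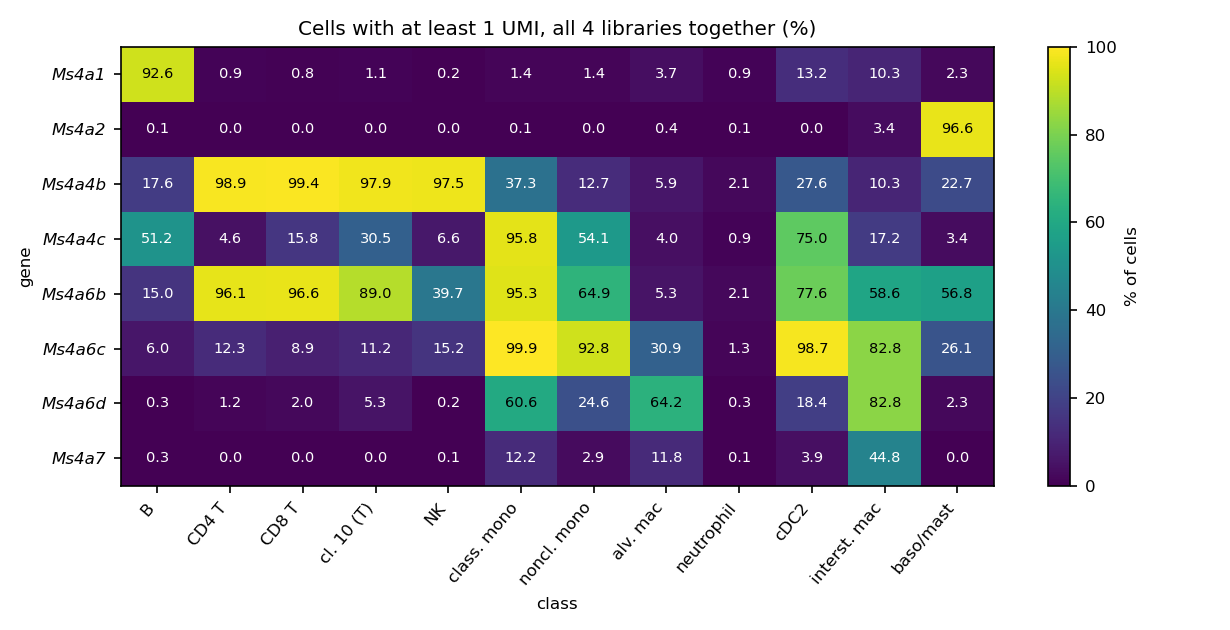
Share of cells with at least 1 UMI (%, number and shade in each field) for the 8 genes (rows) in the 9 tested classes and 3 smaller ones (columns), all 4 libraries together. Ms4a1 stands at 92.6% in B cells, Ms4a2 at 96.6% in basophils or mast cells, Ms4a4b at over 90% in T and NK cells, and the monocytes hold most members at once.

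Ms4a1 was a gene of B cells. In B cells Ms4a1 stood at 1162 and 1072 CPM in the knockout libraries and at 1101 and 1157 CPM in the WT libraries, and 92.6% of the 3600 cells had at least 1 UMI. The knockout and WT values overlapped in CPM, while with TMM scaling both knockout libraries (1118 and 1076) lay just below both WT libraries (1119 and 1193). B cells held 93.3% to 96.1% of all Ms4a1 UMIs of a library. In the other 8 tested classes the mean level lay between 0.553 and 12.01 CPM over the 4 libraries. There 0% to 5.75% of cells had an Ms4a1 UMI, and Cd79a, a chain of the B cell antigen receptor that these classes lack, had one in 0.662% to 12.5% of the same cells. Ighm, another B cell marker, had a UMI in 12.5% to 81.2% of these cells, so the B cell markers give no common background level. The Ms4a1 shares lay in the range of Cd79a or below it, and the values are not read as expression of Ms4a1. Some of the UMIs lay in few cells, with 38 UMIs in 4 of the 201 classical monocytes of knockout 1 and 61 UMIs in 13 of the 226 alveolar macrophages of WT 1, and their source was not tested. The next class in the order was the alveolar macrophage, the class with the deepest cells (median 13440 to 16936.5 UMIs, against 3413 to 3874 in B cells).

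B cells were not uniform for Ms4a1. Cluster 0, the main cluster with 2930 cells, had 905 and 851 CPM in knockout and 873 and 792 CPM in WT libraries. Cluster 8, with a higher level of Vpreb3 (1105 against 259 CPM in cluster 0), the lambda chain gene Iglc1 and the transcription factor Spib, had 2175 and 2098 CPM in knockout and 2517 and 2427 CPM in WT libraries. All 4 libraries of cluster 8 thus lay above all of cluster 0, and within cluster 8 both knockout libraries lay below both WT libraries. Cluster 16, 128 cells led by S100a6, Zbtb32, Igha and Jchain, had 1567 and 1380.4 CPM in knockout and 1448 and 1358 CPM in WT libraries. Ms4a4c had a different order and was highest in cluster 0 among these clusters. Its level was 289 and 279.6 CPM in knockout and 252 and 228 CPM in WT libraries of cluster 0. In cluster 8 it was 112.5 and 125 CPM in knockout and 89.6 and 104 CPM in WT libraries, and in cluster 16 it was 34.5 and 92.0 CPM in knockout and 27.4 and 21.9 CPM in WT libraries. Clusters were made from the genes of these same cells, so these differences are given without a test.

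Ms4a4c was highest among the B lineage in cluster 18, a small cluster with B cell genes (Cd79a at 3384 CPM) that was left unnamed. It was led by genes that interferon induces, with Ifit3 at 468 CPM against 2.49 CPM in cluster 0 and Irf7 at 240 CPM against 15.2 CPM. Ms4a4c stood there at 553 and 709 CPM in knockout and 649.7 and 652 CPM in WT libraries, each above every library of cluster 0. Ms4a1 in the same cells was 975 and 869 CPM in knockout and 1253 and 869.8 CPM in WT libraries, which overlap cluster 0. Before doublets were removed, 42.9% of the 105 cells of this cluster had a high doublet score, with neutrophil genes among the leading ones. Those cells are not in the levels given here. After their removal the neutrophil gene S100a8 stood at 32.6 CPM in cluster 18 and at 24.2 CPM in cluster 0. The part of any doublets that remained in the Ms4a4c level was not tested.

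**Figure D2:**
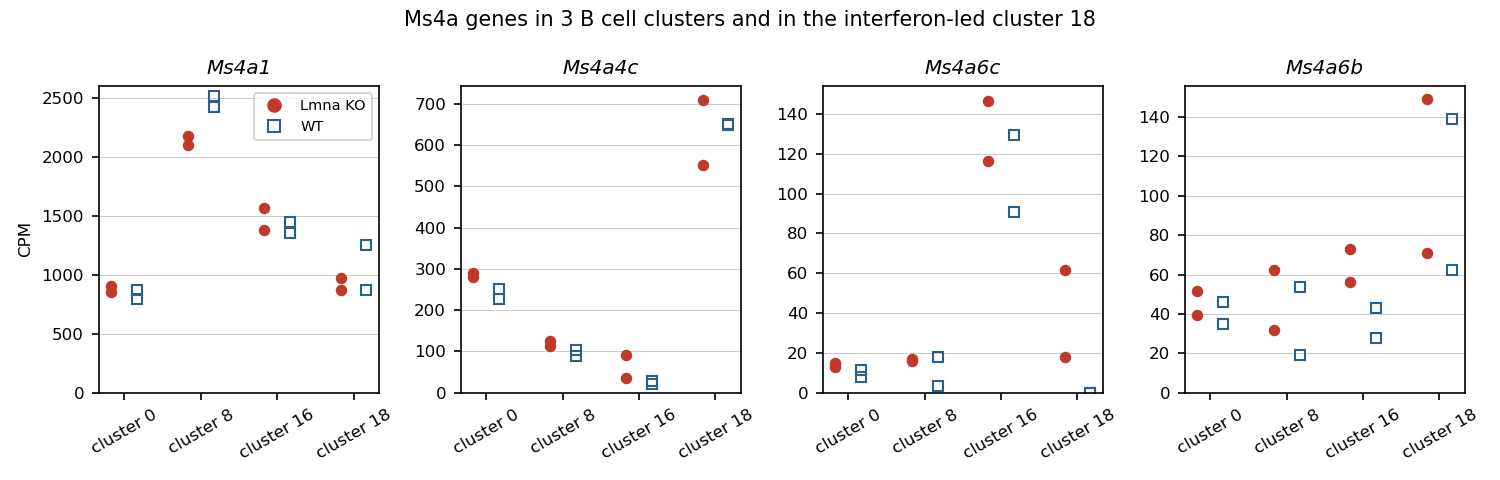
CPM (linear axis) of Ms4a genes in the B cell clusters 0, 8 and 16 and in cluster 18, with knockout libraries as circles and WT libraries as squares. Ms4a1 is highest in cluster 8, and Ms4a4c is lowest on average in cluster 16 and highest in the interferon-led cluster 18.

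Ms4a2 marked a single small class. Among the 88 basophils or mast cells 96.6% had at least 1 UMI, at 928 and 1395 CPM in knockout and 990.1 and 964 CPM in WT libraries. The ranges of the genotypes overlapped, and with 19 to 26 cells per library no test was run. The class held 95.5% to 100% of the Ms4a2 UMIs of a library. In each tested class 0 to 6 UMIs were counted over the 4 libraries, and in CD4 T cells it was 0 of 1860 cells, which allows a share of up to 0.161% of cells with a UMI and sets no limit on cells that express the gene below this depth.

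Ms4a4b was a gene of T and NK cells. At least 96.4% of the cells of every library had a UMI in CD4 T cells, CD8 T cells, NK cells and cluster 10, an unnamed T cell cluster led by Ccl5, Gzma, Nkg7 and Cd8b1. The level was highest in cluster 10, at 2349.6 and 2118 CPM in knockout and 2173 and 2053 CPM in WT libraries. NK cells had 1686 and 1766 CPM in knockout and 1577 and 1508 CPM in WT libraries. CD4 T cells had 1734 and 1664 CPM in knockout and 1546 and 1579 CPM in WT libraries. CD8 T cells had 1622 and 1616 CPM in knockout and 1457 and 1505 CPM in WT libraries. In each of NK, CD4 and CD8 cells both knockout libraries were above both WT libraries in CPM, and with TMM scaling the groups met in CD8 T cells (1564 and 1619.8 in knockout, 1483 and 1564 in WT). Cluster 10 was above NK cells (log2 difference 0.60 ± 0.14, adjusted p = 0.00172 in an edgeR quasi-likelihood test with library as a block, in a contrast that called 25.8% of all genes). CD4 and CD8 T cells did not differ beyond their spread (0.07 ± 0.13, adjusted p = 0.839 by edgeR, in a contrast that called 12.1% of all genes). The order of NK and CD4 T cells rests on the scaling, since the NK mean was higher in CPM and the fitted difference with TMM scaling ran the other way (-0.35 ± 0.14, adjusted p = 0.0349 by edgeR, where 49.0% of all genes were called). The 152 regulatory T cells had 1950.3 and 1651 CPM in knockout and 1419 and 1995 CPM in WT libraries, and these overlap.

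Outside T and NK cells Ms4a4b was far lower, and CD8 T cells were above the next class, classical monocytes, by 4.30 ± 0.17 on the log2 scale, in a contrast that called 72.7% of all genes. In B cells 14.5% to 20.7% of the cells still had a UMI, at 66.0 and 51.6 CPM in knockout and 55.5 and 41.5 CPM in WT libraries. The T cell receptor gene Trbc2 had a UMI in 2.18% to 4.74% of the same B cells and in at least 98.2% of CD4 T cells. The 6 T cell markers together stood at 39.0 to 46.9 CPM in B cells and at 4703 to 6050.2 CPM in CD4 T cells. Ms4a4b in B cells was thus a larger part of its T cell level than the T cell markers were of theirs, and the share in B cells was above that in neutrophils (0.958% to 3.07%), whose cells are shallower. In classical monocytes 29.3% to 40.9% of cells had an Ms4a4b UMI, at a mean of 80.0 CPM, and nonclassical monocytes averaged 41.7 CPM. B cells and both monocyte classes also held the near copy Ms4a4c. The part of reads that fit both genes was not tested. In cluster 11, cycling cells that came mostly from WT 2, Ms4a4b was at 1524 and 1116 CPM in the knockout libraries and at 1081 and 77.6 CPM in WT 1 and WT 2.

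Ms4a6b was shared by T cells and monocytes. It was highest in CD4 T cells, at 1007 and 965 CPM in knockout and 842 and 866 CPM in WT libraries. CD8 T cells followed with 787 and 797 CPM in knockout and 631 and 665 CPM in WT libraries, below CD4 T cells by 0.36 ± 0.09 on the log2 scale (adjusted p = 0.00349 by edgeR). Cluster 10 had 765 and 737 CPM in knockout and 650.5 and 689.7 CPM in WT libraries, and classical monocytes had 630.04 and 701 CPM in knockout and 555.4 and 565 CPM in WT libraries. CD8 T cells, cluster 10 and classical monocytes did not differ between neighbours beyond their spread (log2 differences 0.18 ± 0.10 and 0.04 ± 0.10, adjusted p = 0.244 and 0.734 by edgeR, where 13.9% and 60.0% of all genes were called). Nonclassical monocytes were lower, at 314 and 309 CPM in knockout and 247 and 236 CPM in WT libraries. NK cells were lower again, at 117 and 129 CPM in knockout and 115 and 110.1 CPM in WT libraries. In CPM, NK cells thus had a level like that of CD4 and CD8 T cells for Ms4a4b but not for Ms4a6b. With TMM scaling NK cells were below CD4 T cells for Ms4a4b too.

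Ms4a4c, Ms4a6c and Ms4a6d were highest in classical monocytes among the tested classes. Ms4a4c had 889.7 and 892 CPM there in knockout and 837 and 805 CPM in WT libraries, against a mean of 217 CPM in both B cells and nonclassical monocytes over the 4 libraries. B cells and nonclassical monocytes did not differ beyond their spread for Ms4a4c (log2 difference -0.03 ± 0.10, adjusted p = 0.836 by edgeR, where 69.5% of all genes were called), and classical monocytes were above B cells by 2.12 ± 0.10 (72.1% of all genes called). Ms4a6c had 1623 and 1787 CPM in knockout and 1563 and 1586 CPM in WT classical monocytes, with a UMI in 99.4% to 100% of cells. In nonclassical monocytes it had 929 and 1046 CPM in knockout and 853 and 768 CPM in WT libraries, lower by 0.96 ± 0.09 on the log2 scale (35.8% of all genes called). The next class, NK cells, was a further 4.83 ± 0.13 lower (60.0% called). Ms4a6d had 232 and 192 CPM in knockout and 134 and 153 CPM in WT classical monocytes. Alveolar macrophages followed for Ms4a6d with 144 and 95.6 CPM in knockout and 80.8 and 88.1 CPM in WT libraries, lower by 1.06 ± 0.11 (60.8% called). They were in turn above nonclassical monocytes (0.52 ± 0.12, adjusted p = 0.00013 by edgeR in a contrast that called 60.9% of all genes). Ms4a6c took a different course from Ms4a6d in alveolar macrophages, where it averaged 38.1 CPM.

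Ms4a7 was low in all tested classes and highest in a class too small for a test. In the 29 interstitial macrophages, whose class carries C1qa, C1qb and Apoe, 44.8% of cells had a UMI, at 231 and 291 CPM in knockout and 79.7 and 176 CPM in WT libraries. These values rest on 69 UMIs in all and on 3 to 14 cells per library. In classical monocytes Ms4a7 had 15.1 and 19.5 CPM in knockout and 14.3 and 14.3 CPM in WT libraries, and in alveolar macrophages 4.51 and 7.35 CPM in knockout and 9.57 and 11.3 CPM in WT libraries. A small cluster of 46 cells with genes of both alveolar and interstitial macrophages, which was left unnamed, held 43 knockout and 3 WT cells. There Ms4a7 had 101.5 and 92.7 CPM and Ms4a6d had 191 and 293 CPM in the knockout libraries. In the WT libraries, with 2 and 1 cells, Ms4a7 had 368 and 77.5 CPM and Ms4a6d had 147 and 77.5 CPM. No comparison of genotypes can be made in so few cells.

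**Figure D3:**
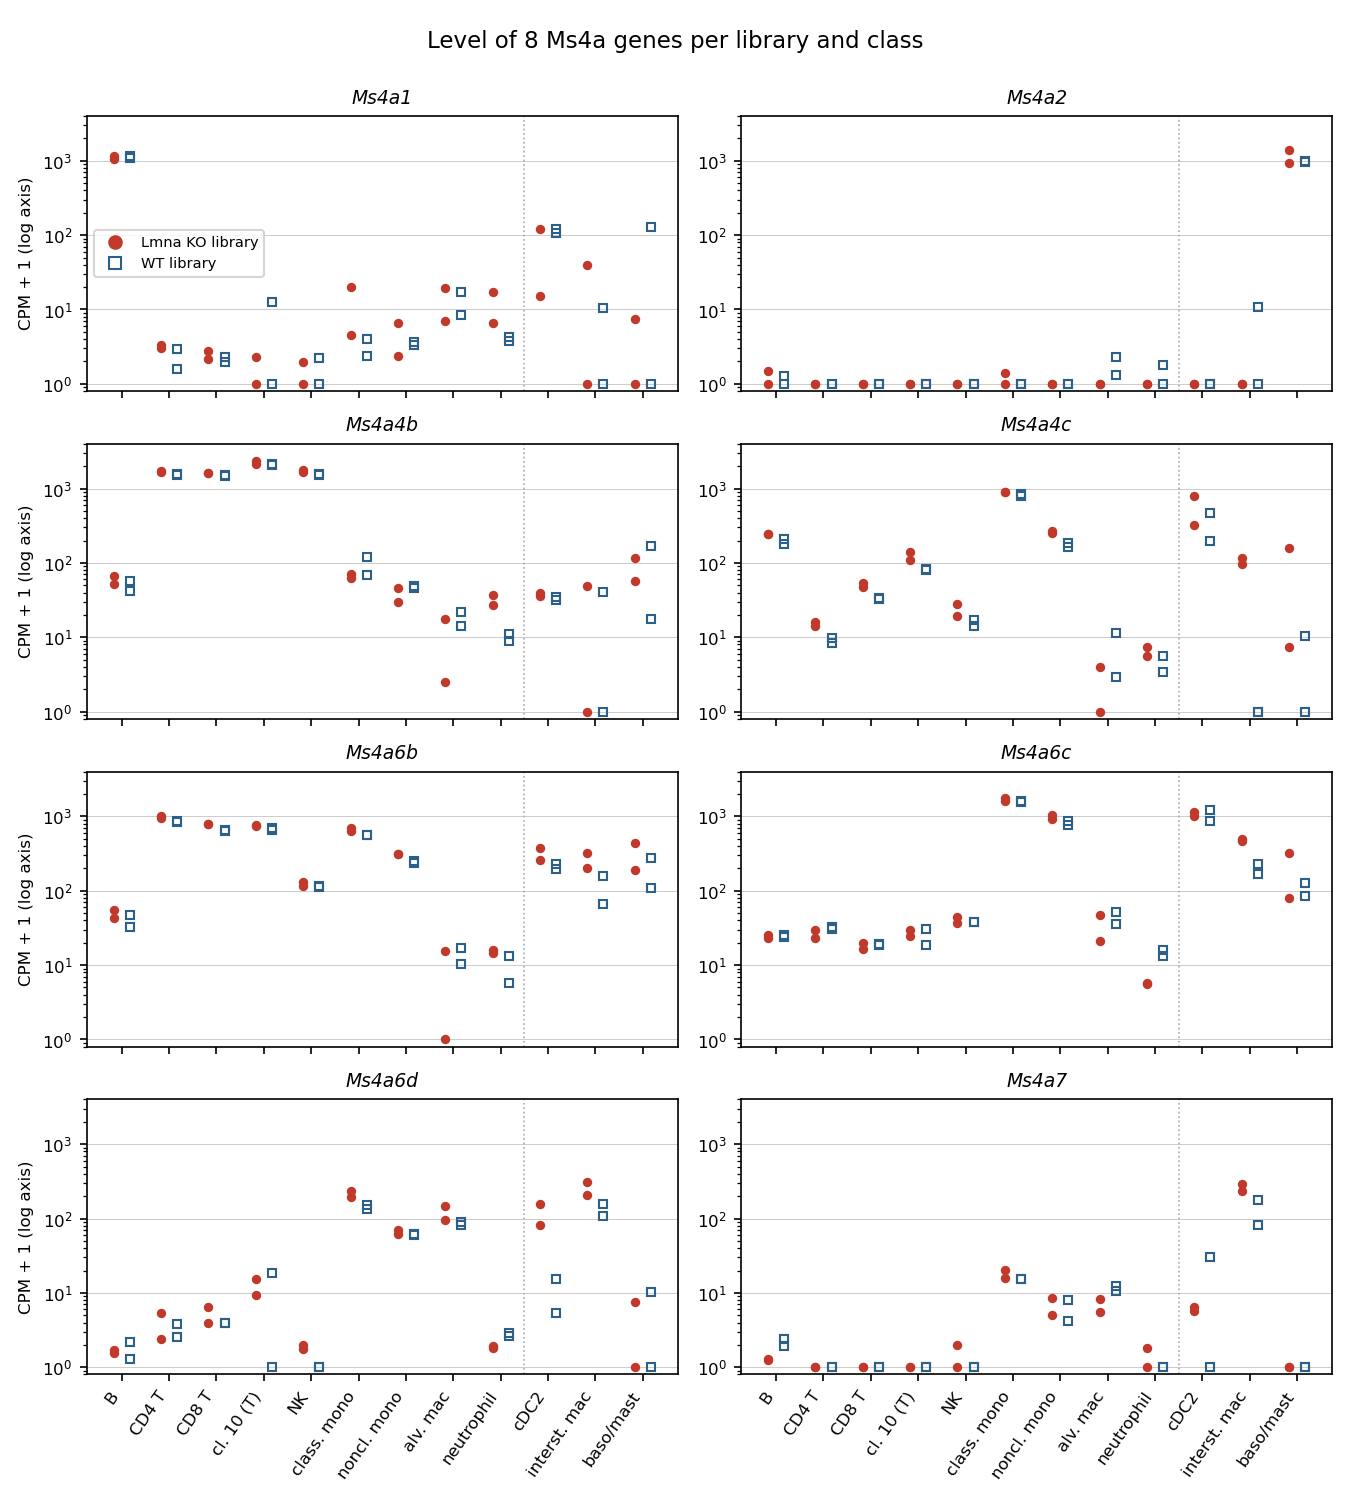
CPM + 1 (log axis) of the 8 genes in the 9 tested classes and, right of the dotted line, 3 classes with fewer cells, with knockout libraries as circles left of WT libraries as squares. In B cells Ms4a1 lies between 1072 and 1162 CPM in the 4 libraries, and its mean in the other tested classes is at most 12.01 CPM.

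A single cell often held RNA of several members. The median number of members with a UMI was 4 in classical monocytes of every library, where 92.1% to 97.0% of cells held 3 or more. It was 2 in B, CD4 T and CD8 T cells, 1 in alveolar macrophages and 0 in neutrophils. Classical monocytes also had more UMIs per cell than lymphocytes. Shares were therefore compared after each cell of 1500 UMIs or more was thinned to 1500 UMIs, with shallower cells left out. Then 86.2% of classical monocytes had a UMI of Ms4a6c and 65.6% one of Ms4a4c, 72.9% of CD4 T cells one of Ms4a6b, 95.2% of cluster 10 one of Ms4a4b and 72.2% of B cells one of Ms4a1 (means of 4 libraries).

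Across the means of the 9 classes (log2 of CPM + 1), the genes with the most similar pattern to each member were taken from 9933 genes. The points share libraries, depth and cell numbers, so r is a description over 9 classes. Ly6d (Pearson r = 0.993), Cd79a (0.99) and Iglc2 (0.986) were nearest to Ms4a1. The T cell kinase gene Txk (0.985), Gm20069 (0.981) and the T cell adaptor gene Skap1 (0.981) were nearest to Ms4a4b. Ms4a6c was nearest to Usp12 (0.984), Lims1 (0.975) and Pkdcc (0.975), and Ms4a6d to Plxdc1 (0.979), Nrp1 (0.975) and Pdxk (0.962). Ms4a6b was nearest to Clint1 (0.976), Ikbke (0.938) and Ifi213 (0.934). The pattern of Ms4a4c was less matched, by Atad2b (0.917), Ahr (0.911) and Gng10 (0.901). Ms4a7 was nearest to Rnd3 (0.993), Plcb1 (0.987) and Apba1 (0.984). Among the members, Ms4a6d and Ms4a7 (0.901) and Ms4a6c and Ms4a7 (0.808) were most alike, and the near-copy pair Ms4a4b and Ms4a4c had r = 0.03.

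The main comparison asked whether Lmna KO cells of a class differ from WT cells in these genes. Of the 42 values of a member in a class that could be tested, 31 fold changes were positive and 11 negative, and 3 passed an adjusted p of 0.05 (edgeR quasi-likelihood test, adjusted over all genes tested in the class). Over all genes the share called was 6.94% in alveolar macrophages, 0.868% in neutrophils, 0.82% in NK cells, 0.777% in nonclassical monocytes, 0.627% in classical monocytes, 0.538% in B cells, 0.527% in CD4 T cells, 0.509% in cluster 10 and 0.499% in CD8 T cells. Both knockout libraries were above both WT libraries for 21 of the 42 values and below both for 6. Over all genes the groups did not overlap, in either direction, for 51.3% in alveolar macrophages, 40.5% in neutrophils and in nonclassical monocytes, 40.4% in classical monocytes, 38.7% in CD4 and in CD8 T cells, 38.5% in NK cells, 37.7% in B cells and 34.5% in cluster 10. The share of members was above that range, but the 42 values share the 4 libraries and cannot be counted as independent.

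**Figure D4:**
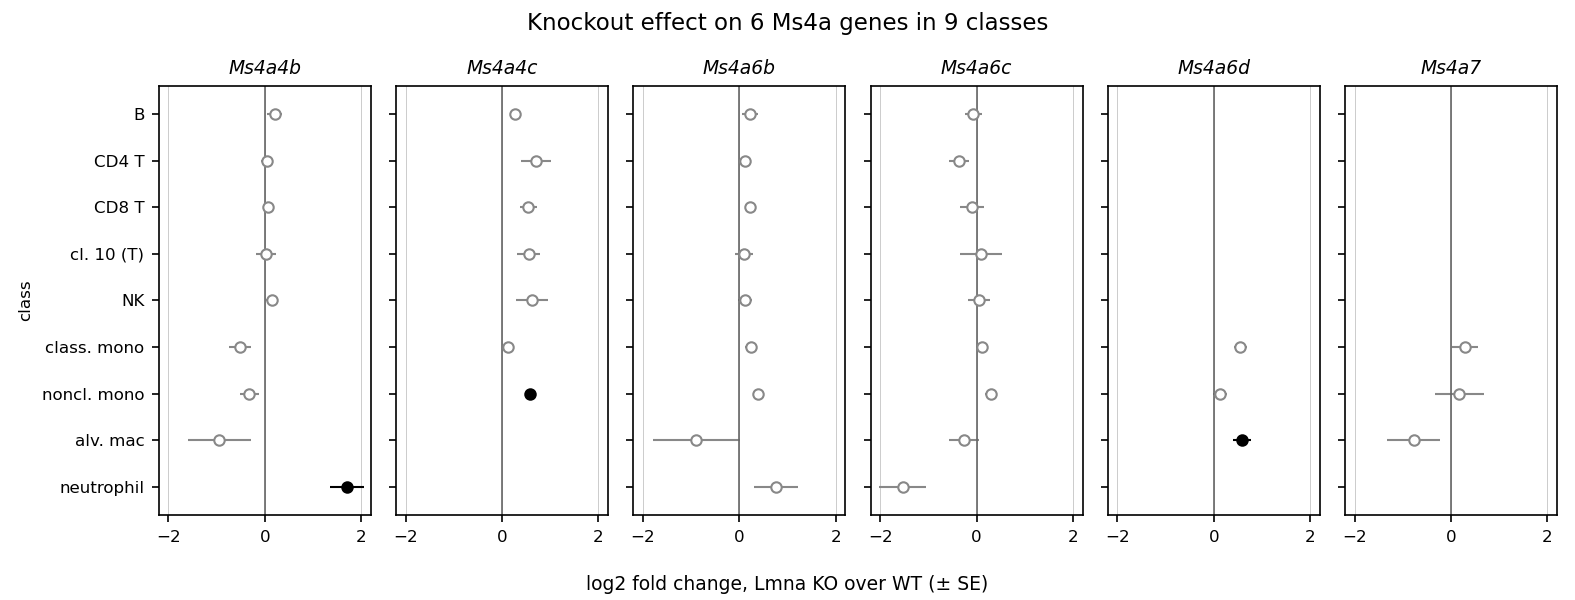
Log2 fold change of Lmna KO over WT (points, with the standard error as a line) for 6 of the genes in the 9 tested classes, filled where the adjusted p by edgeR was under 0.05. Ms4a4c is right of 0 in all 7 classes where it was tested, and the 3 filled points are Ms4a4b in neutrophils, Ms4a4c in nonclassical monocytes and Ms4a6d in alveolar macrophages.

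Ms4a4c rose in knockout nonclassical monocytes, the patrolling monocytes of the vessel wall. It stood at 266 and 252 CPM in the knockout libraries, against 186 and 162 CPM in the WT libraries. All of the knockout values were above all of the WT values. The log2 fold change was 0.58 ± 0.11 (adjusted p = 0.00731 by edgeR), in a class where 0.777% of all genes were called and 0.209% were called higher. The share of cells with a UMI was 59.6% and 61.0% in knockout and 46.8% and 49.2% in WT libraries. The exact (Clopper-Pearson) 95% intervals were 53.9% to 65.1% and 54.9% to 66.8% in knockout and 41.1% to 52.5% and 43.0% to 55.5% in WT libraries. After thinning to 1500 UMIs it was 30.3% and 27.2% in knockout and 20.3% and 16.02% in WT libraries. The 7 markers of classical monocytes, the class with the highest Ms4a4c level, summed to 1058 and 946 CPM in knockout and 941 and 869 CPM in WT cells of the class, with all 7 detected in each library. The 8 interstitial macrophage markers summed to 4215 and 3749 CPM in knockout and 2827 and 3311 CPM in WT cells, with 5 to 6 detected. Without the cells that had a UMI of Ly6c2, a defining gene of classical monocytes, the fold change was 0.61 (adjusted p = 0.0169 by edgeR). The call was lost in DESeq2 (adjusted p = 0.101) and without the WT 2 library (adjusted p = 0.0805 by edgeR).

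In all 7 classes where Ms4a4c could be tested both knockout libraries were above both WT libraries, and only the value in nonclassical monocytes passed the test. In these classes the groups did not overlap, in either direction, for 34.5% to 40.5% of all genes. The 7 values of Ms4a4c share the 4 libraries and cannot be counted as independent. The fold changes were 0.71 ± 0.31 in CD4 T cells, 0.62 ± 0.33 in NK cells, 0.55 ± 0.24 in cluster 10, 0.55 ± 0.17 in CD8 T cells, 0.28 ± 0.11 in B cells and 0.12 ± 0.12 in classical monocytes, with adjusted p from 0.26 to 0.82 by edgeR. In CD8 T cells the level was 46.7 and 53.3 CPM in knockout and 32.2 and 33.0 CPM in WT libraries. In B cells it was 243 and 241 CPM in knockout and 207 and 177 CPM in WT libraries. The difference between the effects in nonclassical and classical monocytes was 0.49 ± 0.11, which did not pass the test over all genes (adjusted p = 0.117 by edgeR, in a contrast that called 0.0221% of genes). It passed with cells gated one by one (0.51, adjusted p = 0.0359 by edgeR) and with doublets kept (0.44, adjusted p = 0.0497 by edgeR), so whether the effects of the 2 classes differ depends on how cells were chosen.

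Ms4a6d rose in knockout alveolar macrophages, the tested class with the highest Lmna level. It stood at 144 and 95.6 CPM in the knockout libraries, from 52 and 32 cells, against 80.8 and 88.1 CPM in the WT libraries, from 226 and 234 cells. Both knockout values were above both WT values, the second by little. The log2 fold change was 0.59 ± 0.18 (adjusted p = 0.0437 by edgeR), in a class that called 6.94% of all genes and 3.76% as higher. Without the knockout 1 library the fold change was 0.22 (adjusted p = 0.676), so the call rests on that library. It was also lost in DESeq2 (adjusted p = 0.255), with doublets kept (0.0613 by edgeR) and with either WT library left out (0.381 and 0.0997 by edgeR). After thinning, 14.6% and 3.23% of knockout cells and 12.5% and 10.9% of WT cells had a UMI, which overlap. The classical monocyte markers in the same cells summed to 702 and 763 CPM in knockout and 942 and 1062 CPM in WT libraries, with 6 and 4 of 7 and with 7 and 7 of 7 detected. The interstitial macrophage markers summed to 849.7 and 772 CPM in knockout and 1271 and 1308 CPM in WT libraries. The part of these cells' marker levels in the Ms4a6d value was not tested. The class leaves out the unnamed cluster of 46 cells with genes of alveolar and interstitial macrophages. That cluster held 23 and 20 knockout cells and 2 and 1 WT cells.

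In classical monocytes Ms4a6d had a fold change of a like size, 0.55 ± 0.13, with an adjusted p of 0.106 by edgeR that missed the threshold. The level was 232 and 192 CPM in knockout and 134 and 153 CPM in WT libraries, and the groups did not overlap. It passed the test in the fit that blocked on replicate number (0.00325 by edgeR) and in that without a low-count filter (0.00243 by edgeR). Nonclassical monocytes had 69.3 and 61.5 CPM in knockout and 62.0 and 59.0 CPM in WT libraries (0.13 ± 0.14). The difference between alveolar macrophages and classical monocytes in this effect was -0.02 ± 0.19 (0.509% of all genes called). The 8 interstitial macrophage markers summed to 1863 and 2299.8 CPM in knockout and 1848 and 1917 CPM in WT classical monocytes, and their part in the Ms4a6d values was not tested.

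Ms4a4b rose in knockout neutrophils, at a level near the background. The neutrophils held 39 and 33 UMIs of Ms4a4b in 13 and 16 of the knockout cells, against 11 and 10 UMIs in 8 and 5 of the WT cells. That made 35.5 and 26.1 CPM in knockout and 10.2 and 8.05 CPM in WT libraries, with a log2 fold change of 1.71 ± 0.35 (adjusted p = 0.0297 by edgeR, in a class that called 0.59% of all genes as higher). The T cell markers in these neutrophils summed to 109 and 122 CPM in knockout and 66.0 and 121 CPM in WT libraries. Of the cells with Ms4a4b, 6 and 6 in knockout and 1 and 1 in WT libraries also had a UMI of a T cell marker. With all cells that had such a UMI left out, 7 and 10 UMIs remained in knockout and 8 and 4 in WT libraries (7.25 and 9.18 CPM in knockout, 8.5 and 3.72 CPM in WT). The groups then overlapped, and the gene was below the count filter, so there was no test. The call was also lost with doublets kept, at a fold change of 0.69 (adjusted p = 0.586 by edgeR). In T and NK cells, where the gene is high, its fold changes were between 0.02 and 0.15 and none passed the test.

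**Figure D5:**
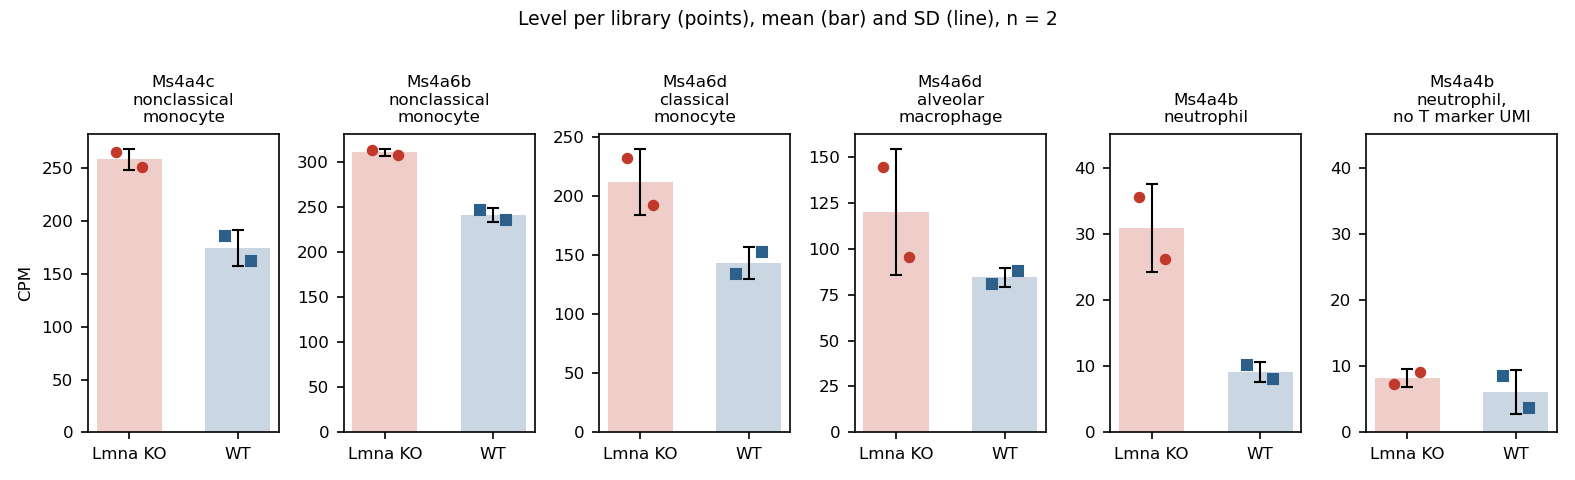
CPM (linear axes from 0) per library as points, with the mean as a bar and the SD as a line (n = 2 each), knockout left of WT, for 5 of the values named in the text and for neutrophils without cells that had a T cell marker UMI. Knockout libraries lie above WT libraries in the first 5 panels, by a small margin for the second knockout library in alveolar macrophages, and the groups overlap in the last.

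The other values of the family did not pass the test. Ms4a6b in nonclassical monocytes had a fold change of 0.38 ± 0.11 with an adjusted p of 0.113 by edgeR, and it passed with no filter on low counts (0.0398) and with cells gated one by one (0.046). Over its 9 classes Ms4a6b was higher in both knockout libraries in 6, with fold changes of 0.12 in CD4 T cells, 0.22 in CD8 T cells and 0.25 in classical monocytes. The 9 classes share the 4 libraries, and in them the groups did not overlap, in either direction, for 34.5% to 51.3% of all genes. Ms4a6c in the monocytes had 0.30 ± 0.12 in nonclassical and 0.11 ± 0.13 in classical cells. Ms4a1 in B cells had a fold change of -0.08 ± 0.12 (adjusted p = 0.911 by edgeR), and Ms4a7 in classical monocytes one of 0.29 ± 0.26 (0.798 by edgeR). Summed over all kept cells, as a bulk sample would show them, all 8 members had a positive fold change, between 0.21 and 0.68, with a median of 0.53 against -0.03 over all genes tested. None passed the edgeR test there (smallest adjusted p = 0.116), in a comparison that called 0.397% of all genes and where the groups of 47.3% did not overlap, while DESeq2 called 4. Such sums mix the level per cell with the number of cells of each class, and alveolar macrophages made up 52 and 32 of the knockout cells against 226 and 234 of the WT cells. The sums also hold clusters 11 and 12, which came mostly from WT 2. Before doublets were removed, cluster 11 held 25 and 19 knockout cells and 19 and 233 WT cells. Cluster 12 held 0 and 7 knockout cells and 0 and 280 WT cells. The part of these cells in the summed values was not tested.

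Genes around the family were counted from lists of related genes. Of the 12 other Ms4a and related genes, at most 4 per class could be tested, and none was called in any class. The 8 genes of the IgE receptor and its signalling had no call in any of the 9 classes, in which 4 to 7 were tested. All 7 genes of the Trem2 list were tested in alveolar macrophages, and 1 rose and 1 fell, in a class that called 6.94% of all genes. Tyrobp, the adaptor of TREM2, had 2373 and 2102 CPM with TMM scaling in knockout and 1572 and 1763 CPM in WT libraries (0.43 ± 0.12, adjusted p = 0.0308 by edgeR). Treml4 had 3.10 and 5.64 such CPM in knockout and 13.46 and 16.1 in WT libraries (-1.77 ± 0.56, adjusted p = 0.048 by edgeR). The knockout values of Treml4 rest on few UMIs from 52 and 32 cells. Treml4 is also a marker of nonclassical monocytes, and the part of RNA from those cells was not tested. Of the 6 genes of the tetraspan list, 5 were tested in alveolar macrophages and 6 in B cells. Cd81 rose in knockout alveolar macrophages, at 363 and 404 CPM with TMM scaling in knockout and 228 and 254 in WT libraries. Its fold change was 0.67 ± 0.14 (adjusted p = 0.00181 by edgeR), in a class that called 6.94% of all genes. Cd9 fell in knockout B cells, at 14.1 and 16.2 such CPM in knockout and 31.3 and 30.8 in WT libraries. There the fold change was -1.03 ± 0.18 (adjusted p = 0.0114 by edgeR), and 0.538% of all genes were called. Within B cells Cd9 was at 109 CPM in cluster 16, against 12.5 and 12.8 CPM in clusters 0 and 8. Before doublets were removed, cluster 16 held 20 and 30 knockout cells and 43 and 36 WT cells. Its part in the Cd9 value was not tested.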

How the data were processed

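Per the labels' protocols, live CD45.2+ cells were sorted from lungs of 2 knockout and 2 WT mice and processed with the Chromium 3′ v3 kit. Cell Ranger 3.0.2, Seurat 3.0.0 and mm10 are named in the submitters' processing notes, without their settings. The authors deposited 1 matrix of raw UMI counts for each library, and free RNA was not subtracted here. Of the 16528 barcodes, 15181 had 200 genes or more and no more than 10% mitochondrial counts, and 461 of these with the highest doublet scores were removed, so that 14720 cells were used. Cells were clustered with leidenalg 0.10.2, without Ms4a and Tmem176 genes, and mixed clusters chosen after clustering were split further. Clusters were named from fixed markers. Some names, those of the CD4 and CD8 T cells among them, were decided by hand after the leading genes were seen.

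Counts were summed per library and class and tested with edgeR 4.0.16 in R 4.3.3 (filterByExpr, TMM, robust quasi-likelihood test), knockout over WT, with Benjamini-Hochberg adjustment over all genes of a class at 0.05. Neighbouring classes and differences of effects were tested with library as a block. The samples of 1 genotype differed beyond sampling noise (1.97 to 5.79 times the counting variance, by chi-square), so cells were not used as replicates. On simulated counts the test recovered 65.6% of 2-fold and 96.2% of 4-fold changes in classical monocytes, and 61.1% and 89.2% in alveolar macrophages. DESeq2 1.42.0, other scalings, filters, gates and left-out libraries were alternatives. Intervals and the limit of 3 counts for a count of 0 cover counting error only.

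The 8 members, Lmna and 4 lists of related genes (up to 4 of a list named per class, by smallest p) were named by rule, with the 3 most similar genes of each member; a further list is not reported here. Members, lists and classes were chosen with earlier results of these data known. Cluster 18, the cluster of 46 cells and the genes that describe clusters were named after their values were seen. Positions come from GENCODE M21 (30934 of 31053 gene IDs matched) and promoters from RefSeq.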

Additional observations from a re-analysis of the deposited data

How the results depend on the processing

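Of 39 named fold changes, 365 of 409 alternative values kept direction and side of the threshold, 26 lost the call, 15 gained it and 3 changed sign. Those 3 were Ms4a4b in CD4 T cells (-0.04) and Ms4a6b in CD4 T cells (-0.015) with the strict cell filter (500 genes or more, mitochondrial counts up to 5%), and Ms4a2 over all cells, which ranged from -0.18 without knockout 2 to 1.23 without knockout 1; none of these was called, and the cause was not tested. The 3 calls of a member in a class became 0 with DESeq2, 6 of 64 with no filter on low counts, 1 with doublets kept, 1 of 21 with the strict cell filter and 1 to 7 with 1 library left out. They stayed at 3 with RLE scaling and numbered 2 with cells gated one by one. Over all cells the count of 0 calls by edgeR became 4 with DESeq2, and 0 to 4 with 1 library left out. Between neighbouring classes 23 of 56 differences were called, 33 with doublets kept and 20 to 25 with 1 library left out. Of 22 differences of an effect between classes 0 were called by edgeR, against 2 with doublets kept (Ms4a1 and Ms4a4c), 1 with cells gated one by one (Ms4a4c) and 0 to 2 with 1 library left out. The pair of regulatory and CD4 T cells was not run, because regulatory T cells were under 25 in a library. The replicate numbers of the labels served as a replicate block in 1 fit, which called 4 members in a class, adding Ms4a6d in classical monocytes (0.55). Same-numbered libraries deviated together with correlations of -0.02 to 0.11 over 2 pairs, so the numbers are not taken to pair the samples. Leaving neutrophils with a T cell marker UMI out, chosen after seeing the data, left 2 calls. Few UMIs stand behind Ms4a7 in the tested classes (at most 136 in a class) and Ms4a4b in neutrophils (93).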

Other observations

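Ms4a8a, a related gene that is no member of the 8, had a UMI in 88.6% of alveolar macrophages, at a mean of 221 CPM in knockout and 265 CPM in WT libraries, and its fold change there was -0.20 ± 0.14 (adjusted p = 0.483 by edgeR). Summed over all kept cells it had 22.6 and 19.2 CPM with TMM scaling in knockout and 52.0 and 44.3 CPM in WT libraries (-1.21 ± 0.14, adjusted p = 0.0625 by edgeR), beside 52 and 32 alveolar macrophages in knockout and 226 and 234 in WT libraries.

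Ms4a6c in neutrophils had 4.56 and 4.75 CPM in knockout and 14.9 and 12.1 CPM in WT libraries, a fold change of -1.54 ± 0.50 that did not pass the test (adjusted p = 0.257 by edgeR). In the 76 conventional dendritic cells of type 2, which were too few for a test, Ms4a6c had 1154 and 1008 CPM in knockout and 870.5 and 1205 CPM in WT libraries. Its mean over the libraries was 1640 CPM in classical monocytes and 899 CPM in nonclassical monocytes. Ms4a4c had 798 and 321 CPM in knockout and 466 and 199 CPM in WT libraries of those cells, and the groups overlapped.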
